A study of Mus musculus with 12 samples.

Results

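The 5′ end row is the first base of each transfer RNA (tRNA) entry in the deposited tables, the last base that reverse transcriptase copies before it runs off the RNA. Members were all rows with row number 1, which 342 of 404 entries have. Entries whose values are identical were counted once, which left 158 distinct rows of 213 distinct entries, in tables of 28302 rows. Of the 158, 57 stand for 241 entries, and the first base was G in 140, T in 10, A in 5 and C in 3. Coverage never exceeded 8015, and 92 members whose entry reached 7500 in any library were set apart, because a ceiling on coverage would raise their share. Of the other 66, 49 had a highest coverage of at least 50 in every library and were tested, and 17 did not and were not tested.

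RNA came from mouse hematopoietic stem and progenitor cells, which form blood, all of wild-type genotype. The 4 groups of 3 libraries each are old cells with CMC, old cells in BEU buffer alone, young cells with CMC and young cells in BEU buffer alone. In all 4 groups the small RNA had been demethylated with wild-type and mutant AlkB enzymes and kept in sodium carbonate buffer before adaptor ligation and copying with SuperScript III. Ages in months and numbers of animals are not given in the sources used here, and the labels do not say that replicates are separate animals, so each p-value reflects only library-to-library spread, possibly technical. The tables hold tRNA only, and the cell type could not be checked against marker genes.

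tRNA is folded and densely modified, and reverse transcriptase starts at its 3′ end and often halts before the 5′ end. CMC is a carbodiimide that binds uridine, guanosine and pseudouridine, and the alkaline step leaves it mainly on pseudouridine, where it blocks the enzyme. A read that covers the 5′ end row therefore stems from a molecule copied past every base on the way. The AlkB enzymes take methyl groups off some bases that would otherwise also halt copying.

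The measure is the row 1 share, coverage at row 1 as a percent of the highest coverage of the same entry in the same library. It is an upper limit on the share of full-length reads. Coverage at row 1 counts every read that reaches the 5′ end row, wherever its 3′ end lies. That includes stop reads at row 1, which end 1 base short of the end. Each entry also has a row 0, where stop reads equalled coverage in 100% of values, so row 0 holds reads that ran to the very end. Row 0 coverage summed over the 49 tested members was 90.1 to 93.7% of row 1 coverage in each of the 12 libraries. Stop reads at row 1 equalled the step in coverage from row 1 to row 0 in 14.7% of values, exceeded it by 1 in 49.7% and lay below it in 35.5%.

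The 7 entries below carry the results on single tRNAs. They are printed as deposited, as DNA letters from row 1 at the 5′ end to the last row of the entry, and capitals mark rows that hold at least 10% of all stop reads 3′ of row 1 in the 6 CMC libraries, after 1 was taken off every value. The Gln entries lost most of their row 1 share with CMC, Thr-CGT had the next largest loss on the odds scale in old cells, Arg-CCT and Lys-TTT gained, Leu-CAG differed between ages, and Pro-TGG had the highest share.
tRNA-Gln-CTG-1-1: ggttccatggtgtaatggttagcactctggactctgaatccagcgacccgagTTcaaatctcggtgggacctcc
tRNA-Gln-TTG-2-1: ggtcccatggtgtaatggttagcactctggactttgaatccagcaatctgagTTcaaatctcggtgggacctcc
tRNA-Thr-CGT-2-1: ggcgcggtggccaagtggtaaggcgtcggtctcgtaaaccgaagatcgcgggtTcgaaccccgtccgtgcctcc
tRNA-Arg-CCT-2-1: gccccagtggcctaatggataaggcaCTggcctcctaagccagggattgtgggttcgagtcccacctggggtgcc
tRNA-Lys-TTT-2-1: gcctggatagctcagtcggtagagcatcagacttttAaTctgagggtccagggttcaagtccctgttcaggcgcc
tRNA-Leu-CAG-4-1: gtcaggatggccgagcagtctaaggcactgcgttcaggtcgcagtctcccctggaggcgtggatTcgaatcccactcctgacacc
tRNA-Pro-TGG-4-1: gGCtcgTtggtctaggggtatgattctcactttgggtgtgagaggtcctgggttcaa

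Depth at the 5′ end differed widely between libraries. Row 1 coverage summed over the 158 members was 14254, 7768 and 25185 in the old CMC libraries and 208600, 64673 and 55850 in the old BEU libraries. It was 17930, 60620 and 9097 in the young CMC libraries and 111927, 86458 and 180884 in the young BEU libraries. CMC libraries were thus the shallower ones at the 5′ end, except that young CMC library 2 lay above old BEU library 3. At their depth the 3 old CMC libraries agreed within sampling noise at row 1. So did young CMC libraries 1 and 3 (chi-square over degrees of freedom 1.21, p = 0.152). In their stop reads the old CMC libraries did not agree (chi-square over degrees of freedom 1.28 to 1.64, p from 3.6e-31 to 4.3e-07). Old BEU libraries 2 and 3 agreed within sampling noise at row 1 over 66 members (chi-square over degrees of freedom 0.712, p = 0.962), but not in their stop reads over 1743 other rows (1.09, p = 0.00378). They were kept as separate libraries, and calls of named members that were lost with both summed as 1 are given beside the result.

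The median row 1 share of the 49 tested members was about as low in CMC libraries of either age and about as high in BEU libraries of either age. It was 3.86, 3.47 and 3.08% in the old CMC libraries, against 7.25, 7.19 and 6.67% in the old BEU libraries. In young cells it was 4.40, 3.66 and 3.46% with CMC, against 7.35, 6.77 and 6.79% in BEU buffer. No CMC library reached the lowest BEU library at either age. The difference of CMC from BEU was -3.56 points in old cells and -3.13 points in young cells, each with p = 0.1 in the two-sided exact permutation test, the smallest p that 3 against 3 libraries allow. With the labels permuted within each age over all 12 libraries the mean difference was -3.35 points (exact permutation p = 0.005, the smallest possible).

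The age groups were not told apart by this library median. Between old and young cells it differed by -0.368 points with CMC (two-sided exact permutation p = 0.5) and by 0.0684 points in BEU buffer (exact permutation p = 1), and the libraries of the age groups overlapped in both. The BEU difference took the other sign under 8 other settings and without any 1 of 4 libraries. Within the 4 groups the library medians had SDs of 0.318 to 0.491 points.

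**Figure D1:**
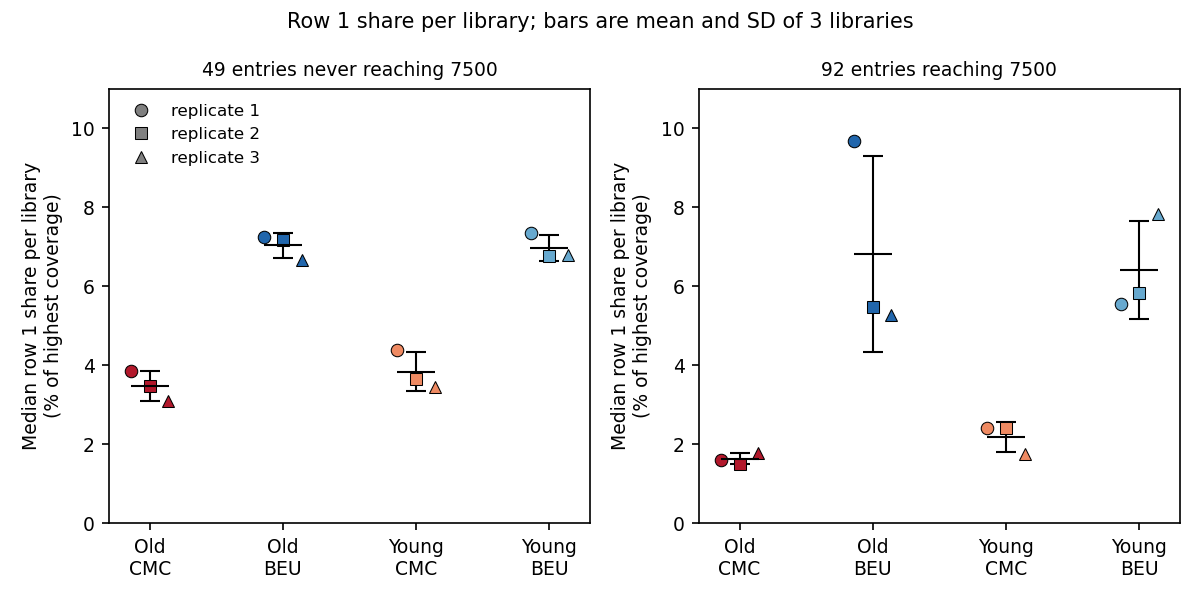
Median row 1 share (percent of the entry's highest coverage) in each library, for 49 members never reaching 7500 (left) and 92 members reaching 7500 (right), with mean and SD of 3 libraries. On the left every CMC library lies between 3.08 and 4.40% and every BEU library between 6.67 and 7.35%; on the right old BEU library 1 stands at 9.67%.

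The coverage along the entries shows where the reads ended that did not reach row 1. At a distance of 84% of the entry's length from the 5′ end, median coverage of the 49 members lay between 98.7 and 99.9% of the highest in all 12 libraries. At 70% it was 25.3 to 34.6% in the CMC libraries and 71.0 to 85.9% in the BEU libraries, so most of the separation by CMC arose between these distances. At 50% the CMC libraries stood at 13.4 to 17.7% and the BEU libraries at 35.4 to 60.3%. There the old BEU libraries (50.2 to 60.3%) lay above the young BEU libraries (35.4 to 47.1%), a gap that was no longer present at row 1. This mid-entry gap was picked out after the values were seen and was not tested.

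**Figure D2:**
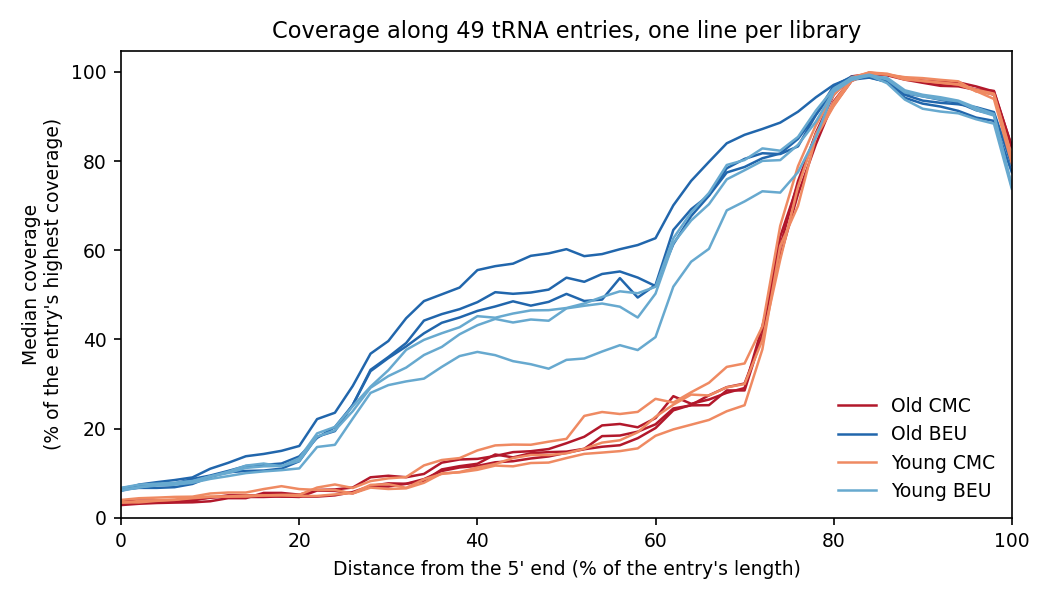
Median coverage of 49 members, as percent of the entry's highest coverage, against the distance from the 5′ end in percent of the entry's length, one line per library. CMC lines fall steeply between 80 and 70% of the length, while BEU lines decline in steps and end at 6.03 to 6.72% at 0% of the length.

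Where copying halted differed between CMC and BEU libraries. Of the 49 tested members, the row with the most stop reads 3′ of row 1 was a T in 40 in the CMC libraries and in 24 in the BEU libraries. In CMC libraries this row was position 55 of the usual tRNA numbering, the pseudouridine of the T loop, in 27 members. In BEU libraries a G held the most stop reads in 19 members. T rows took 56.5 to 59.3% of stop reads in the CMC libraries and 33.5 to 36.5% in the BEU libraries. The old BEU libraries (36.0 to 36.5%) lay above the young (33.5 to 34.1%), a gap that was not tested. Stop reads were summed over the 49 members here, so members with many stop reads weigh most.

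Member by member, most row 1 shares fell with CMC and a few rose. In old cells 34 of 49 members (percent called 69.4) were lower and 5 (percent called 10.2) higher with CMC, and 10 did not pass (percent called in either direction 79.6) by the edgeR quasi-likelihood test at a Benjamini-Hochberg adjusted p of 0.05. In young cells 31 of 49 (percent called 63.3) were lower, 6 (percent called 12.2) higher and 12 did not pass (percent called in either direction 75.5). All 31 lower calls in young cells were also lower in old cells, which is 91.2% of the calls there, and 5 members were higher at both ages. The groups did not overlap in 32 lower and 7 higher members in old cells, and in 30 lower and 4 higher members in young cells. The median change over the 49 members was -2.90 points in old cells and -2.28 points in young cells, or -0.99 and -0.98 as log2 odds of reaching row 1. These 49 members hold 46 different sets of row 1 coverage, and near-identical entries such as Arg-CCG-1-1 and Arg-CCG-2-1 share reads, so the counts overstate the number of independent tRNAs. The higher calls depended on single libraries and on the setting. In old cells the 5 became 1 without BEU library 1 and 2 without CMC library 1. In young cells the 6 became 3 without CMC library 1 and 4 without CMC library 2 or BEU library 3. With a highest coverage of at least 200 in every library, 0 of 20 entries were higher at either age. With 1 subtracted from every coverage, 3 were higher in old and 5 in young cells. The lowest coverage was 1, and a constant of 1 may have been added to every value. Limma on the share in percent called 1 higher in old and 3 in young cells. DESeq2 called 2 higher in old and 3 in young cells. With old BEU libraries 2 and 3 summed as 1, 32 were lower and 4 higher in old cells.

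**Figure D3:**
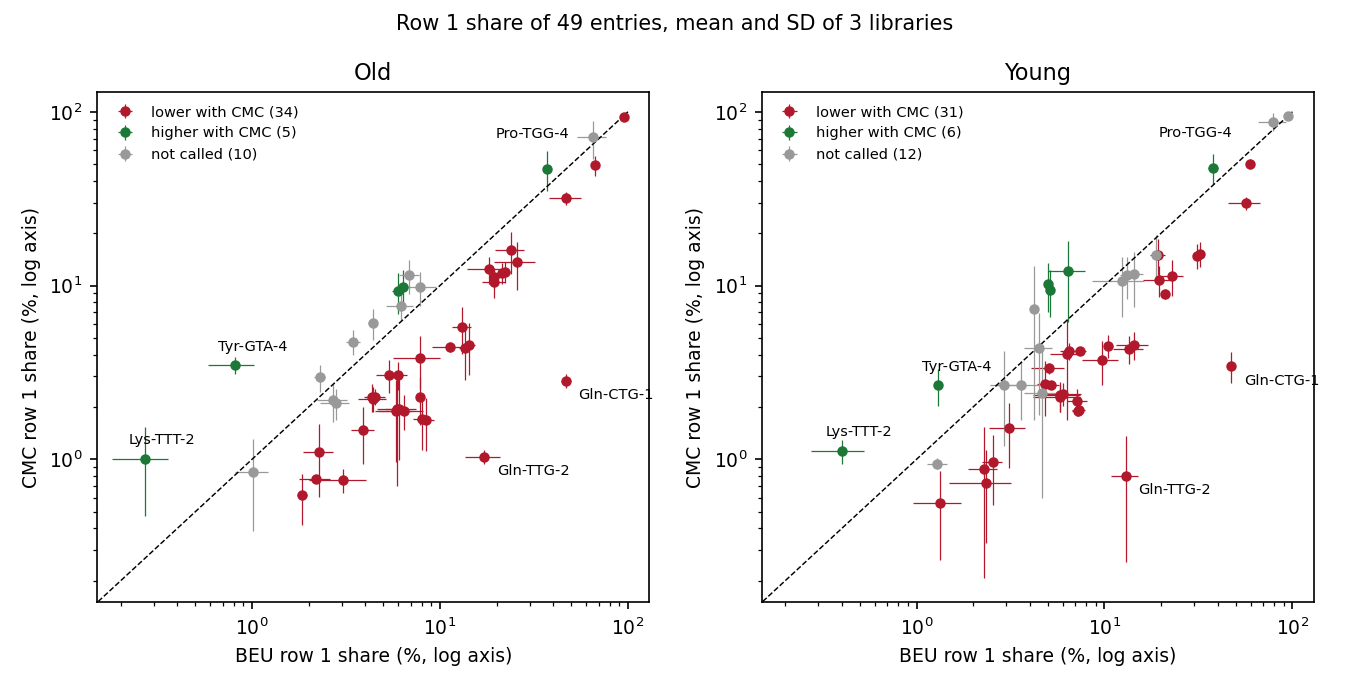
Row 1 share of 49 members in CMC libraries (vertical) against BEU libraries (horizontal), as mean and SD of 3 libraries on log axes, for old (left) and young (right) cells; the dashed line marks equal shares. Lower calls (34 old, 31 young) lie below the line with the 2 labelled Gln entries farthest from it, and higher calls (5 old, 6 young) lie above it.

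The 2 glutamine tRNAs whose capitals mark both bases at rows 53 and 54, positions 54 and 55 of the T loop, had the largest falls in odds at both ages. The row 1 share of tRNA-Gln-CTG-1-1 was 2.73, 2.66 and 3.12% with CMC in old cells, against 48.6, 43.4 and 48.1% in BEU buffer. In young cells it was 4.16, 3.41 and 2.78% with CMC, against 47.3, 46.9 and 47.4% in BEU buffer. The groups were far apart at each age, with log2 odds of -4.88 in old cells (edgeR adjusted p = 1.06e-12) and -4.62 in young cells (edgeR adjusted p = 1.61e-12). Behind the shares stood row 1 coverage of 23, 14 and 43 with CMC in old cells and 3046, 570 and 533 in BEU buffer. CMC stop rates at its rows 53 and 54 averaged 76.7 ± 3.51% and 48.5 ± 1.82% in old cells and 76.3 ± 3.37% and 46.7 ± 4.56% in young cells (SD, n = 3 each).

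tRNA-Gln-TTG-2-1 started from a lower share. It stood at 0.995, 0.973 and 1.14% with CMC in old cells, against 21.4, 14.7 and 15.6% in BEU buffer. In young cells it stood at 1.44, 0.492 and 0.485% with CMC, against 14.7, 10.6 and 13.7% in BEU buffer. Every CMC library lay below every BEU library, with log2 odds of -4.28 in old and -4.37 in young cells (edgeR adjusted p = 1.1e-08 and 1.51e-08). Only 2 to 15 reads covered row 1 in each CMC library. The third tested glutamine entry, Gln-CTG-5-1, had its main CMC stop at row 39, and its share was 2.18 ± 0.546% with CMC and 2.70 ± 0.496% in BEU buffer in old cells, with no call at either age; in young cells it passed the test without CMC library 1 (adjusted p = 0.0308) or without BEU library 3 (adjusted p = 0.0387).

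Both Thr-CGT entries, both valine entries and the tryptophan entry were lower with CMC at each age, by less than the 2 Gln entries. tRNA-Thr-CGT-2-1 had 1.23, 2.33 and 1.51% with CMC in old cells, against 9.37, 7.74 and 8.04% in BEU buffer, and 1.98, 1.98 and 1.78% with CMC in young cells, against 7.35, 6.71 and 7.89%. Its groups did not overlap (log2 odds -2.49 in old and -1.99 in young cells, edgeR adjusted p = 6.49e-08 and 4.96e-07), and the capital T at row 54 is position 55, where CMC stop rates averaged 63.1 ± 2.70% in old and 65.8 ± 4.24% in young cells (SD, n = 3 each). Thr-CGT-1-1 has nearly the same row 1 coverage and is not a second observation. The third threonine entry, Thr-AGT-4-1, had 9.81 ± 2.21% with CMC and 7.81 ± 1.68% in BEU buffer in old cells, and was not called at either age. tRNA-Val-CAC-3-1 had 4.38 ± 1.54% with CMC and 13.5 ± 0.923% in BEU buffer in old cells (log2 odds -1.89, edgeR adjusted p = 1.65e-05), and its values nearly repeat in Val-AAC-3-1. tRNA-Trp-CCA-5-1 had 2.27 ± 0.699% with CMC and 7.78 ± 0.11% in BEU buffer in old cells, and 2.16 ± 0.375% against 7.17 ± 0.89% in young cells, with log2 odds of -1.80 at both ages (edgeR adjusted p = 3.9e-06 and 2.75e-06).

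By amino acid the counts stand beside 69.4% of all 49 members lower in old and 63.3% in young cells. Of 11 alanine entries 10 were lower with CMC at each age. All 4 serine entries, which have a long variable arm, were lower at each age. Ala-AGC-5-1 lost its call at both ages with the row of highest mean coverage as denominator (edgeR adjusted p = 0.716 in old and 0.893 in young cells). Its old call was also lost with DESeq2 (adjusted p = 0.0989) and the replicate block (0.0586). Ser-CGA-1-1 lost its old call with DESeq2 (adjusted p = 0.0752) and without CMC library 3 (0.183) or BEU library 1 (0.0535). The alanine entries include 2 pairs with identical row 1 coverage, and Ala-TGC-5-1 nearly repeats that of Ala-CGC-3-1, so they are fewer than 11 observations. Of 4 leucine entries 3 were lower in old and 2 in young cells. Of 11 arginine entries 6 were lower at each age, while 3 were higher in old and 4 in young cells, and the median log2 odds of the arginine family were -1.13 and -1.29. The 2 isoleucine entries, which share row 1 coverage, were not called at either age. Row 1 coverage summed over the CMC libraries was 27 in both Ser-CGA-1-1 and Ser-CGA-3-1. It was 101 in both Arg-TCT-2-1 and Arg-TCT-3-1, and 95 in both Arg-CCG-1-1 and Arg-CCG-2-1. The serine and arginine counts may therefore also overstate the number of observations.

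Averaged over the 6 pairs of libraries, tRNA-Ala-AGC-3-1 had the second largest fall in points (-20.8), after Gln-CTG-1-1 (-43.8). Its share was 33.3, 33.8 and 28.6% with CMC in old cells, against 36.6, 50.5 and 53.99% in BEU buffer, and 29.3, 27.7 and 32.5% with CMC in young cells, against 58.2, 66.2 and 44.5%. The groups did not overlap at either age (log2 odds -0.87 in old and -1.61 in young cells, edgeR adjusted p = 0.0285 and 0.000415), but the old call was lost without CMC library 1 or 3 or BEU library 2 or 3 (adjusted p from 0.0527 to 0.125), and with old BEU libraries 2 and 3 summed as 1 (0.0691). tRNA-Arg-TCT-2-1 had 10.5 ± 2.02% with CMC and 19.5 ± 2.80% in BEU buffer in old cells, and 8.98 ± 0.636% against 21.0 ± 0.342% in young cells (edgeR adjusted p = 0.00055 and 2.65e-05). In both entries the main CMC stop was the T at position 55.

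Single methionine, serine and phenylalanine entries were lower with CMC, some of them at 1 age or only with all libraries. tRNA-Met-CAT-2-1 had 11.2 ± 1.45% with CMC and 19.5 ± 1.31% in BEU buffer in old cells (log2 odds -0.93, edgeR adjusted p = 0.000909), and 15.1 ± 3.50% against 19.2 ± 1.77% in young cells (-0.48, adjusted p = 0.0392). The young call was lost without CMC library 2 (adjusted p = 0.306) or BEU library 1 (0.0708) or 2 (0.118), and also with DESeq2 (0.0916), limma on log2 odds (0.122) and the replicate block (0.0906). tRNA-Ser-TGA-1-1 had 2.297 ± 0.258% with CMC and 4.52 ± 0.604% in BEU buffer in old cells, and 3.35 ± 0.241% against 5.08 ± 1.03% in young cells (edgeR adjusted p = 0.000698 and 0.0108), and its young call was lost without CMC library 2 (0.0529) or BEU library 2 (0.058). tRNA-Phe-GAA-3-1 was lower in old cells, with 16.01 ± 4.29% with CMC and 23.8 ± 4.13% in BEU buffer (edgeR adjusted p = 0.0242), but not without CMC library 1 or 2 or BEU library 1 (adjusted p from 0.0824 to 0.121). In young cells it was called only without CMC library 2 (adjusted p = 0.0234), and its main CMC stop lay on an A at row 57.

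tRNA-Lys-CTT-14-1, the other tested lysine entry, had missing rows and also a low share. It stood at 0.846 ± 0.459% with CMC and 1.01 ± 0.201% in BEU buffer in old cells, and at 0.944 ± 0.0664% against 1.29 ± 0.156% in young cells, with no call at either age. tRNA-Leu-TAG-2-1 had 5.80 ± 1.76% with CMC and 13.1 ± 1.55% in BEU buffer in old cells (log2 odds -1.19, edgeR adjusted p = 0.00129), and 11.5 ± 3.10% against 13.3 ± 1.23% in young cells, with no call and an interaction that did not pass (adjusted p = 0.708).

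A smaller set of arginine, tyrosine and lysine tRNAs had a higher share with CMC. tRNA-Arg-CCT-2-1 had 12.2, 8.39 and 7.44% with CMC in old cells, against 5.48, 6.32 and 6.08% in BEU buffer, and 9.73, 7.28 and 13.6% with CMC in young cells, against 5.27, 4.90 and 4.82%. Its groups did not overlap at either age (log2 odds 0.69 in old and 0.95 in young cells, edgeR adjusted p = 0.0246 and 0.00305). In old cells the call was lost without CMC library 1 (log2 odds 0.43, adjusted p = 0.181) and without BEU library 1 (0.61, adjusted p = 0.0726). It was also lost with DESeq2 (adjusted p = 0.0679), limma on the share in percent (0.0805) and all distinct entries in the fit (0.0528). The capitals of this entry mark rows 27 and 28 at the 5′ strand of the anticodon stem, and its T loop holds none. Arg-CCT-1-1, also called higher at both ages, has nearly the same row 1 coverage, so both count as about 1 observation.

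tRNA-Tyr-GTA-4-1 had 3.86, 3.47 and 3.08% with CMC in old cells, against 0.667, 1.06 and 0.689% in BEU buffer, and 2.93, 1.94 and 3.14% with CMC in young cells, against 1.30, 1.38 and 1.24%. Every CMC library lay above every BEU library (log2 odds 2.20 in old and 0.91 in young cells, edgeR adjusted p = 2.6e-05 and 0.0133). The young call was lost without CMC library 1 (log2 odds 0.79, adjusted p = 0.0589) and with DESeq2 (adjusted p = 0.0584). The interaction of age and CMC had its smallest edgeR p in this entry, at log2 odds of 1.29, and did not pass (adjusted p = 0.353). Row 1 coverage of this entry summed over the CMC libraries was only 58, against 139 over the BEU libraries. It is identical in tRNA-Tyr-GTA-3-1, an entry set apart for reaching 7500. The share of tRNA-Tyr-GTA-3-1 in old CMC library 2 was 0.693%, against 3.47% for tRNA-Tyr-GTA-4-1. How reads were divided between these 2 entries was not tested.

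Lysine tRNA with anticodon TTT, which carries a bulky modification beside the anticodon at position 37, had the lowest share of all tested members in BEU buffer. tRNA-Lys-TTT-2-1 had 0.712, 1.62 and 0.685% with CMC in old cells, against 0.168, 0.310 and 0.330% in BEU buffer, and 1.32, 1.04 and 0.985% with CMC in young cells, against 0.420, 0.268 and 0.518%. The groups did not overlap (log2 odds 1.97 in old and 1.39 in young cells, edgeR adjusted p = 0.00687 and 0.0067), but only 2 to 12 reads covered row 1 in each CMC library. With 1 subtracted from every coverage the old call was lost (log2 odds 1.59, adjusted p = 0.075), and it was also lost without CMC library 2 (1.61, adjusted p = 0.0639) or BEU library 1 (1.52, adjusted p = 0.0585); the young call was lost without CMC library 2 (1.53, adjusted p = 0.0609). Most of its copies stopped at the capital A at row 37, which is position 37, where BEU stop rates averaged 89.9 ± 3.04% in old and 93.6 ± 0.145% in young cells, and CMC stop rates 92.1 ± 0.582% and 91.8 ± 3.11% (SD, n = 3 each). That row held 75.9% of its BEU stop reads and 45.2% of its CMC stop reads, with a further 27.5% at row 39, a T, in the CMC libraries.

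tRNA-Arg-ACG-2-1 was also called higher at both ages, with 56.1, 33.3 and 51.8% with CMC in old cells, against 38.1, 36.5 and 37.4% in BEU buffer. Its groups overlapped, since old CMC library 2 lay below all old BEU libraries, and the call was lost without any 1 of 5 old libraries (adjusted p from 0.0811 to 0.231) or 4 young ones (0.0558 to 0.149). The old call was also lost with old BEU libraries 2 and 3 summed as 1 (adjusted p = 0.0831). Its highest coverage lay at row 27. In BEU buffer its last 10 rows were covered at 74.0% of row 1 in old and 80.0% in young cells. With CMC they stood at 169% in old and 145% in young cells. Some of its row 1 reads in BEU buffer therefore did not cover the 3′ end and are not full-length. Arg-TCG-4-1 was called higher in young cells only in the main fit, and lost that call without any 1 of 4 young libraries (edgeR adjusted p from 0.0607 to 0.162). The young call was also lost with DESeq2 (adjusted p = 0.0664), the replicate block (0.0635) and 1 subtracted from every coverage (0.0573). In old cells it had log2 odds of 0.79 (edgeR adjusted p = 0.0516). It was called there with limma on log2 odds (adjusted p = 0.0367) and with only the groups compared in the edgeR fit (0.0236). Its interaction of age and CMC did not pass (edgeR adjusted p = 0.999).

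In these members the denominator of the share had moved as well. BEU libraries were deeper, and over the 49 members the mean highest coverage in CMC libraries was a median of 29.5% of that in BEU libraries in old cells and 41.5% in young cells. For the 5 higher members in old cells it was 8.497 to 11.6%, and for the 6 higher members in young cells 13.5 to 19.5%. For the lower members it had a median of 34.1% (range 9.13 to 79.0%) in old and 50.3% (range 14.2 to 122%) in young cells. Row 1 coverage of the higher members had a median of 14.7% of the BEU level (range 11.1 to 52.8%) in old cells. In young cells it was 23.9% (range 19.2 to 47.4%). For the lower members the median was 11.4% (range 1.93 to 30.8%) in old and 17.5% in young cells. For the members not called it was 37.8% in old and 35.4% in young cells. Row 1 coverage and the highest coverage both enter the share itself. How much the loss of highest coverage contributes to the rises was not tested.

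**Figure D4:**
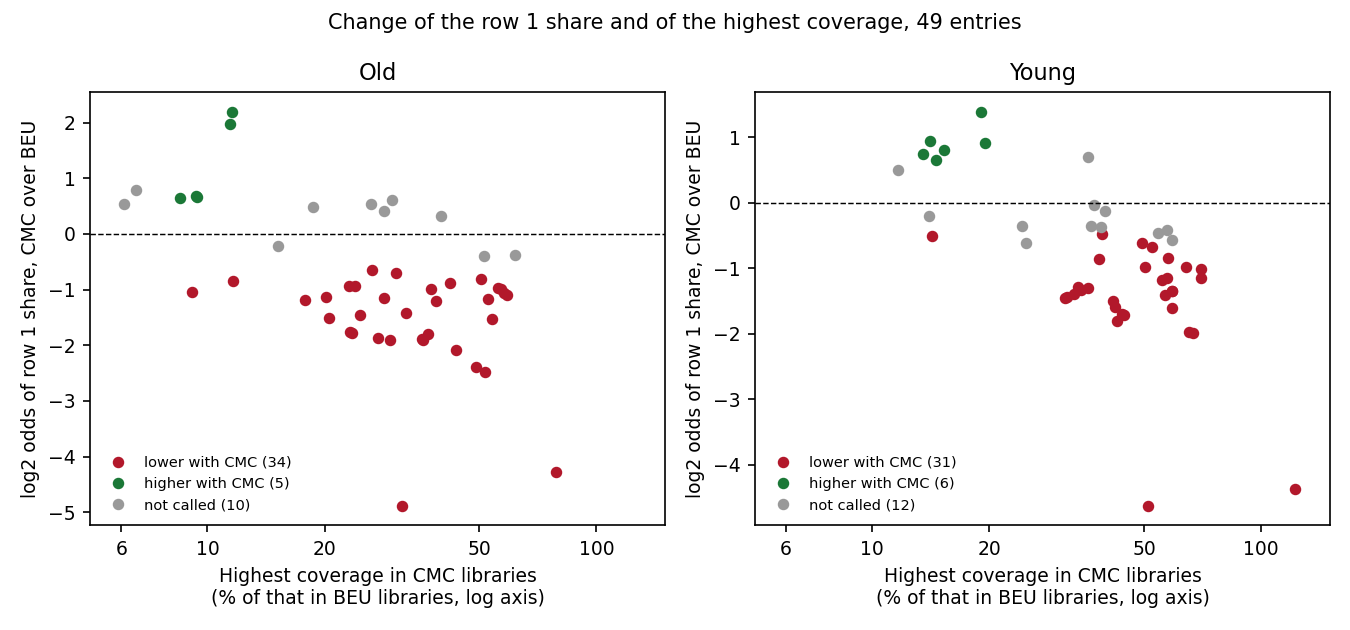
Log2 odds of the row 1 share, CMC over BEU, against the mean highest coverage in CMC libraries as percent of that in BEU libraries (log axis), for 49 members in old (left) and young (right) cells. All higher calls lie at 8.497 to 11.6% in old and 13.5 to 19.5% in young cells, and the lowest points are the 2 Gln entries.

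The highest row 1 share, that of a proline entry, came from reads near the 5′ end. tRNA-Pro-TGG-4-1, of 57 listed rows, had 91.6, 94.1 and 92.6% with CMC in old cells, against 95.8, 96.0 and 95.4% in BEU buffer, and 93.8, 93.8 and 95.7% with CMC in young cells, against 95.0, 94.7 and 94.6%. Its highest coverage lay at row 13, and its last 10 rows were covered at 0.598 to 2.81% of row 1 in the 4 groups, so these reads start near the 5′ end and are not full-length. It was lower with CMC in old cells (log2 odds -0.84, edgeR adjusted p = 0.00442), and no call was made in young cells. tRNA-Asp-GTC-4-1 peaked at row 21, with its last 10 rows at 2.23 to 12.6% of row 1, and had 49.3 ± 6.43% with CMC in old cells and 67.2 ± 2.03% in BEU buffer. In 4 of the 49 tested members the highest coverage lay on the 5′ side of the middle: these Pro-TGG and Asp-GTC entries, Arg-ACG-2-1 and Ala-AGC-5-1.

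tRNA-Met-CAT-5-1, an elongator methionine tRNA, also had a high share but a wide spread. It stood at 71.2 ± 17.8% with CMC in old cells and 65.2 ± 11.3% in BEU buffer, and at 87.9 ± 10.0% with CMC in young cells and 79.1 ± 13.1% in BEU buffer (SD, n = 3 each), with no call at either age. In young cells it was called higher without BEU library 2 (log2 odds 1.31, adjusted p = 0.0262). This entry has missing rows, as do 13 of the 49 tested members, and in such entries row 1 and the highest coverage may come from different reads.

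Few members were called between old and young cells in the row 1 share, and a member not called was not shown to be unchanged. In BEU buffer 3 of 49 (percent called 6.12) were lower in old cells and 0 (percent called 0.0) higher by the edgeR test, with 8 at an unadjusted p under 0.05; the groups did not overlap in 9 lower and 5 higher members. With CMC 0 of 49 were called in either direction (percent called 0.0), with 4 at an unadjusted p under 0.05, and DESeq2 also called 0. Of the interaction of age and CMC, 0 of 49 passed in edgeR (percent called 0.0) and DESeq2, with 2 at an unadjusted p under 0.05 in edgeR. The median log2 odds of old over young were -0.02 in BEU buffer and -0.19 with CMC.

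The clearest age difference was in tRNA-Leu-CAG-4-1, a leucine tRNA with a long variable arm. Its share in BEU buffer was 5.03, 6.89 and 6.67% in old cells, against 15.3, 15.4 and 12.3% in young cells. The groups did not overlap (log2 odds -1.36, edgeR adjusted p = 0.00482). With CMC it was 7.37, 9.22 and 6.41% in old cells, against 13.99, 6.94 and 13.95% in young cells, where the groups overlapped and no call was made. Its main BEU stop lay at row 35, a C, with a stop rate of 35.6 ± 4.61% in old and 42.3 ± 9.01% in young cells, and its main CMC stop at the capital T at row 65, at 89.2 ± 1.48% in old and 88.3 ± 0.369% in young cells (SD, n = 3 each). With all 141 distinct entries in the fit, those reaching 7500 included, no entry was called and the adjusted p of this one was 0.249.

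The other calls were tRNA-Ala-TGC-7-1 and tRNA-Ala-TGC-8-1, which have identical row 1 coverage and missing rows and count as 1 observation. For tRNA-Ala-TGC-8-1 the BEU share was 23.8, 22.0 and 20.6% in old cells, against 33.7, 30.7 and 31.9% in young cells (log2 odds -0.73, edgeR adjusted p = 0.0153). The call was lost with old BEU libraries 2 and 3 summed as 1 (adjusted p = 0.0666), without old BEU library 3 (0.1004) and without young BEU library 1 (0.1003). Leu-CAG-4-1 was then the only call with the 2 libraries summed.

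**Figure D5:**
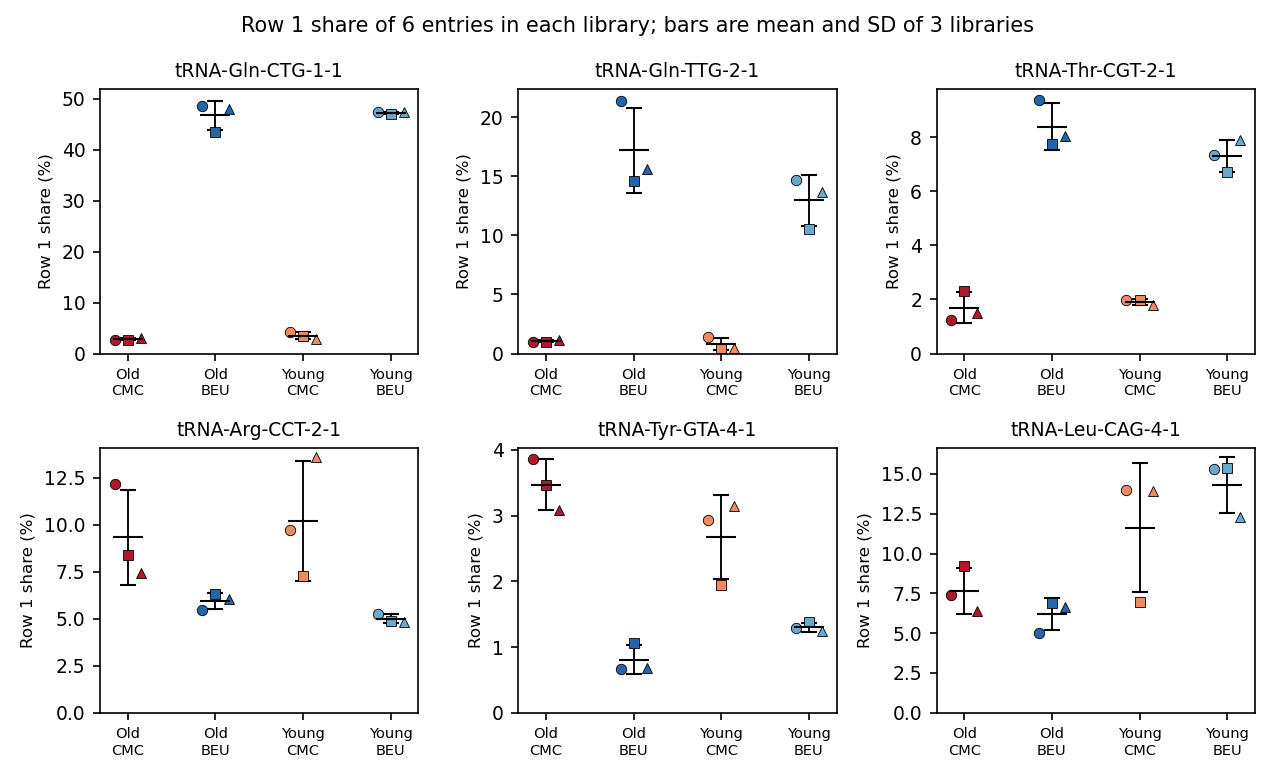
Row 1 share (percent) of 6 members in each library, with mean and SD of 3 libraries per group; circles, squares and triangles are replicates 1, 2 and 3. CMC libraries lie below BEU libraries in the Gln and Thr panels and above them in the Arg-CCT and Tyr panels, and in the Leu-CAG panel old BEU libraries (5.03 to 6.89%) lie below young BEU libraries (12.3 to 15.4%).

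Row 1 coverage itself, scaled by TMM, compared how abundant the reads reaching the 5′ end row were. In BEU buffer 1 of 65 members tested was higher in old cells and 1 lower (percent called 1.54 each). tRNA-Gln-TTG-2-1 was higher, with unscaled row 1 coverage of 476, 91 and 76 in old cells, against 121, 78 and 207 in young cells (log2 fold change 0.94, edgeR adjusted p = 0.00628). Old BEU library 1 stood far above the others before scaling, but it was also the deepest library at row 1 (208600 summed over the 158 members). Without that library the fold change was 0.63 on the log2 scale (adjusted p = 0.0858). tRNA-Leu-CAG-4-1 was lower, with unscaled row 1 coverage of 193, 84 and 71 in old cells, against 280, 274 and 390 in young cells (log2 fold change -0.93, edgeR adjusted p = 0.00628). Without old BEU library 3 or young BEU library 3 the count of calls was 4 and 5. With CMC 0 of 46 were called in edgeR (percent called 0.0) and DESeq2, with 3 at an unadjusted p under 0.05 in edgeR. In these bulk libraries fewer cells of a type and less tRNA per cell cannot be told apart, nor can fewer molecules and fewer copies that reach the 5′ end.

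Stop reads at row 1, reads that end 1 base short of the end, were a small part of row 1 coverage. Summed over the 49 members they made up 11.1, 12.1 and 9.51% of row 1 coverage in old CMC libraries and 7.31, 6.39 and 6.33% in old BEU libraries. In young cells they made up 11.6, 8.61 and 13.4% with CMC and 6.91, 6.91 and 7.15% in BEU buffer. CMC libraries were above BEU libraries here, but the lowest possible stop value is 1, which weighs most where coverage is low. With 1 taken off each stop value the range was 5.36 to 8.76% in CMC libraries and 5.37 to 7.08% in BEU libraries, which overlap. Within ages, the old libraries overlapped, while in young cells the values stayed apart, at 8.76, 7.61 and 7.48% with CMC against 6.47, 6.35 and 6.88% in BEU buffer. Among 17 members with at least 1000 reads at row 1 over the 6 BEU libraries, the stop share ran from 4.14% in Gln-CTG-1-1 to 12.7% in Trp-CCA-5-1, with a median of 5.99%.

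The 92 members reaching 7500 have a share that the ceiling on coverage can raise. Their median share was 1.61, 1.51 and 1.78% in old CMC libraries, against 9.67, 5.49 and 5.27% in old BEU libraries, and 2.41, 2.40 and 1.74% in young CMC libraries, against 5.55, 5.84 and 7.84% in young BEU libraries. The BEU libraries with the highest medians, old 1 and young 3, were those in which 92 and 88 of the 158 members reached 7500. Row 1 itself reached 7500 in 10 members of old BEU library 1, 6 of young BEU library 3 and 2 of young CMC library 2. At the threshold, the tested members with the highest coverage were Ser-TGA-1-1 (6148), Thr-CGT-1-1 (6259) and Gln-CTG-1-1 (6262), and the nearest members set apart were Ala-AGC-6-1 (7698), Leu-TAG-3-1 (7959) and Leu-TAG-1-1 (7960).

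In old CMC library 2 and young CMC library 3 no entry reached 7500, so all 158 shares can be read there, with medians of 2.47% and 2.62%. Initiator methionine tRNA, which starts translation, had shares of 5.32 to 48.4% in its 3 entries in the old library and 5.59 to 60.9% in the young library. Its entries iMet-CAT-1-1 and iMet-CAT-3-1 had nearly equal row 1 coverage (789 and 787 in the old, 1085 and 1081 in the young library) but shares of 23.6% and 48.4% in the old library and different highest coverage; how reads were divided between such near-copies was not tested. The selenocysteine tRNA, SeC-TCA-1-1, had 25.6% in the old and 30.4% in the young library. The 2 histidine tRNAs had the lowest family median, at 0.14% in the old and 0.20% in the young library, with 2 to 7 reads at row 1. At least 1 of these 2 entries has missing rows, where row 1 and the highest coverage may come from different reads. Each value rests on 1 library per age, and no test was made.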

How the data were processed

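DM-Ψ-seq of small RNA was deposited as 6 tables, each with the BEU and CMC library of 1 age and replicate. Per the file headers, the authors give for each base the coverage as a count of reads, the number of stop reads and a stop rate in percent, which equals 100 times stop reads over coverage. Bowtie and Bowtie2 2.3.5 and the build mm10 are listed in the submitters' processing notes, and how stops were assigned is not stated there. Members, lists and alternatives were chosen with earlier results of these data known. Reads carry no molecular identifiers and are not independent molecules.

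For shares, edgeR 4.0.16 in R 4.3.3 fitted the quasi-likelihood test to row 1 coverage and highest minus row 1 coverage, with 1 coefficient for each library and 1 log odds for each group, over all 12 libraries. Row 1 coverage was tested with TMM and filterByExpr. Library medians were compared by exact permutation. Members named were the highest and lowest BEU shares, the largest and smallest changes with CMC and age, the best-covered member of each amino acid and all calls of row 1 coverage; further members are named only as near-copies, family values or threshold cases. Alternatives used limma 3.58.1, DESeq2 1.42.0, other filters and rows, and each library left out. Libraries were not paired by replicate number in the main fits, and a replicate block was run as an alternative. Correlations of same-numbered deviations ran from -0.541 to 0.442 over all pairs, and from -0.357 to 0.442 between CMC and BEU libraries of 1 age. With 3 libraries per group they cannot decide whether same-numbered libraries share RNA. Fits were tested on simulated counts. Positions follow the anticodon and T loop, and genome coordinates were not used here.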

Additional observations from a re-analysis of the deposited data

How the results depend on the processing

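With CMC, calls on the share numbered 101 in old and 102 in young cells with all 141 distinct entries tested, and 16 in old and 15 in young cells with a highest coverage of at least 200, where 20 entries were tested and none was higher. Leaving out 1 library gave 30 to 36 calls in old and 32 to 35 in young cells. The 3 calls between ages in BEU buffer became 0 with all distinct entries, and 1 (Leu-CAG-4-1) with the coverage minimum of 200, limma on log2 odds, DESeq2, only entries without missing rows, and old BEU libraries 2 and 3 summed; leaving out 1 library gave 1 to 5. With CMC, 0 became 2 without young CMC replicate 2 (range 0 to 2). For row 1 coverage in BEU buffer, 2 calls became 1 with all distinct entries and 4 with the libraries summed (1 to 5 without 1 library). With CMC, 0 became 1 with library size as the sum of highest coverage and 0 to 2 without 1 library. The interaction stayed at 0 under each setting run.

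The age difference of the BEU library median, 0.0684 points, was -0.0931 with all distinct entries, -0.194 for the pooled share, -0.00724 with 1 subtracted, -0.0636 at row 3, -0.555 with the minimum of 200, -0.0658 with no minimum, -0.0311 at row 0, -0.312 without entries peaking on the 5′ side, and -0.0398 to 0.257 without 1 library. The CMC differences of library medians were negative under every setting run, at -7.17 to -2.55 points in old and -6.59 to -1.17 points in young cells. With no minimum on coverage the young difference was -1.17 points (exact permutation p = 0.4), and with the pooled share -6.59 points. With the replicate block the counts were 36 and 34 of 49 for CMC in old and young cells, 3 and 0 between ages in BEU buffer and with CMC, and 3 and 0 for row 1 coverage. Low coverage limits the shares of CMC libraries most: the median member had 9 to 47 reads at row 1 there, against 54 to 209 in BEU libraries.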
